A study of Mus musculus with 6 samples.

Results

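The 7 genes Bcl2l15, Trp53inp1, Hilpda, Arrdc4, Entpd3, Prnp and Rhov were picked as genes of the neutrophils of day 12 liver lesions, with measured values of these libraries in view, and were located by symbol. All 7 were present in each of the 3 deposited matrices, which held 5301 features together and 1642 in common. CD45+ immune cells had been sorted from small liver pieces of Balb/c mice after intracardiac injection of 4T07 cells, a mouse mammary tumour line, and profiled by single-cell RNA-seq of transcript 3' ends. The tumour cells carried either a non-targeting construct (Ctrl) or an shRNA against Tim3 (Tim3-KD), so the knockdown was in the injected cells and not in the sorted immune cells. For each tumour line, 1 library came from tumour-free adjacent tissue on day 3, 1 from micrometastasis on day 3 and 1 from macrometastasis on day 12. Each of the 6 libraries was a pool of 2 mice and the only library of its group. Within a site no test between groups was therefore possible, a fit over the sites with tumour line as a term was not run, no p-value is given, and every interval is a 95% interval that covers counting error only. Day and site cannot be told apart for macrometastasis.

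Neutrophils are short-lived phagocytes that mature from promyelocytes through myelocytes and metamyelocytes, losing granule gene transcripts and gaining those of chemokine receptors, inflammatory cytokines and stefins. Bcl2l15 is a member of the BCL2 family, whose proteins govern cell death at mitochondria, and Trp53inp1 is a p53-inducible nuclear protein that takes part in autophagy. Hilpda is a hypoxia-inducible protein of lipid droplets that inhibits adipose triglyceride lipase. Arrdc4 is an arrestin-domain protein related to Txnip, a regulator of glucose uptake. Entpd3 is a cell-surface enzyme that hydrolyses extracellular ATP and ADP, Prnp encodes the GPI-anchored prion protein, and Rhov encodes a small GTPase.

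The libraries held 542 to 5502 cells with a median of 6300 to 10248 UMIs per cell, and of 23008 barcodes 59 occurred in more than 1 library. Cells were clustered on the shared genes without the 7 genes, and clusters were named "-like" from marker lists. Of the 20 listed markers of mature neutrophils 12 were measured in all matrices, and none of the 12 was at 0 in the class in the 5 libraries that follow. They made up 29.1 to 35.7% of the cells in 5 libraries. Adjacent tissue Ctrl held 576 such cells, micrometastasis 1484 in Ctrl and 1661 with Tim3-KD, and macrometastasis 1605 in Ctrl and 1962 with Tim3-KD. The library labelled adjacent tissue Tim3-KD stood apart with 19 such cells, 3.51% of its cells, and is left out of the comparisons of this class. The class consisted of 3 clusters. Cluster 0 was led by Steap4, Acod1 and Ccrl2, cluster 2 by Prok2 and stefin genes, and cluster 1 by Saa3, Mirt1 and Il1r2. Of the cells of cluster 1, 99.2% were from macrometastasis, so this cluster may be those libraries and not a cell type. It held 83.1% of the mature neutrophil-like cells of macrometastasis Ctrl and 47.3% of those of macrometastasis Tim3-KD. In micrometastasis, 54.8% (Ctrl) and 37.0% (Tim3-KD) were in cluster 0 and nearly all others in cluster 2.

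The 7 genes lie on 6 autosomes of the mouse genome build GRCm38. The GENCODE annotation places Bcl2l15 at chr3:103832601-103854618, Trp53inp1 at chr4:11156431-11174379, Hilpda at chr6:29272488-29275446, Entpd3 at chr9:120539818-120568327 and Prnp at chr2:131909928-131938429, all on the plus strand. Arrdc4 lies at chr7:68736995-68749241 and Rhov at chr2:119269201-119271272, both on the minus strand. Each is a protein-coding gene, and reads over exons and introns were counted together. Bcl2l15 overlaps Gm43064 and Prnp overlaps Prn on the same strand, in both cases reaching an exon, so reads of these pairs could be shared and the levels of Bcl2l15 and Prnp are uncertain to that extent.

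The 250 bases before the annotated RefSeq start are shown for 4 of the genes, so that the 2 metabolic and surface genes with an E-box and the 2 genes that separated micrometastasis from adjacent tissue can be read side by side. Capitals mark the matches, and all sequences are RefSeq GRCm38.p6, 5′ to 3′ on the strand of the gene. The motifs searched on both strands were CACGTG (E-box), ACGTG and GCGTG (hypoxia response cores), TGACTCA (AP-1), TTGCNNAA (C/EBP) and TATAAA.
Arrdc4, chr7:68749239-68749488, minus strand: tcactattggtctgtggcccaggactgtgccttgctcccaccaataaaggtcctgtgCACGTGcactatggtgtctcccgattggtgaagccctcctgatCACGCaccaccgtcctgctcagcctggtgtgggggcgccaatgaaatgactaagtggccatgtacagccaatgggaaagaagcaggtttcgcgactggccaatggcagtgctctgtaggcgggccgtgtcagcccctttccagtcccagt
Entpd3, chr9:120539568-120539817, plus strand: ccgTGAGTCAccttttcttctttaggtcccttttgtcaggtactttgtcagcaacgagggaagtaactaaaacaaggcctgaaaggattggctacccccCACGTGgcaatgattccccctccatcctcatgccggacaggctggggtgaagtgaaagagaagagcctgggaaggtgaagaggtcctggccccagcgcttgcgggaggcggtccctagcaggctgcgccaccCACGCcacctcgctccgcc
Prnp, chr2:131909678-131909927, plus strand: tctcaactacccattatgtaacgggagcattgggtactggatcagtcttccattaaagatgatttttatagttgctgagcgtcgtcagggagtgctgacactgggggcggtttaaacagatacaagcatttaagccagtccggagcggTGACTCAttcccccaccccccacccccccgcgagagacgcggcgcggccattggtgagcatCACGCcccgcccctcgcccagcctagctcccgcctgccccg
Bcl2l15, chr3:103832446-103832695, plus strand: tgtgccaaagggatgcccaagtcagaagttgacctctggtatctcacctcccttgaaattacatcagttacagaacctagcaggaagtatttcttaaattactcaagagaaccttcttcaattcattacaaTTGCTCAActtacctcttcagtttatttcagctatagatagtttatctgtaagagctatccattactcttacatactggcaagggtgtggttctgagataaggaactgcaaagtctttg
Arrdc4 had CACGTG 193 bases before its start, which also reads as ACGTG on both strands, and CACGC, the reverse complement of GCGTG, 150 bases before it. Entpd3 had CACGTG 151 bases, the reverse complement of TGACTCA 247 bases and that of GCGTG 19 bases before its start. Prnp had TGACTCA from base 149 of the printed sequence and the reverse complement of GCGTG 41 bases before its start, and also the reverse complement of TATAAA at 186 bases, which is not capitalised. Bcl2l15 had TTGCNNAA 119 bases before its start. Hilpda had GCGTG at 111 and at 8 bases and ACGTG at 43 bases before the second of its annotated starts, and Rhov had GCGTG at 4 bases. Trp53inp1 was not searched, since it was not matched in the promoter table used here. Of 32851 promoter windows of 300 bases, 7.15% held CACGTG, 19.6% ACGTG, 32.4% GCGTG, 5.20% TGACTCA, 10.8% TTGCNNAA and 13.6% TATAAA. A match describes the letters and is not evidence of a bound site.

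Among the neutrophil stages, all 7 genes were highest in mature neutrophil-like cells in each of the 4 lesion libraries. The genes were picked as genes of day 12 neutrophils, so their levels by stage are a description. Levels are summed UMIs of a gene per 1000000 UMIs of all genes (CPM) in the cells named. Bcl2l15 in macrometastasis Ctrl was 5.91 CPM in promyelocyte-like, 14.9 in myelocyte-like, 119 in metamyelocyte-like and 315 in mature neutrophil-like cells. Entpd3 in the same library went from 0.657 CPM, a single UMI, through 9.63 and 34.8 to 114 CPM. Trp53inp1 ran from 2.63 through 18.8 and 76.8 to 255.8 CPM. The 3 genes thus had each stage above the one before it in this library. Arrdc4 had a higher start, since in macrometastasis Ctrl it was already 42.7 CPM in promyelocyte-like and 52.5 CPM in myelocyte-like cells, against 2.28 and 2.51 CPM in micrometastasis Ctrl. Hilpda was also measurable at every stage, with 17.7 to 22.6 CPM in promyelocyte-like cells of the 4 lesion libraries. The promyelocyte-like cells of macrometastasis Ctrl were only 30 cells, and adjacent tissue held too few for a value.

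**Figure D1:**
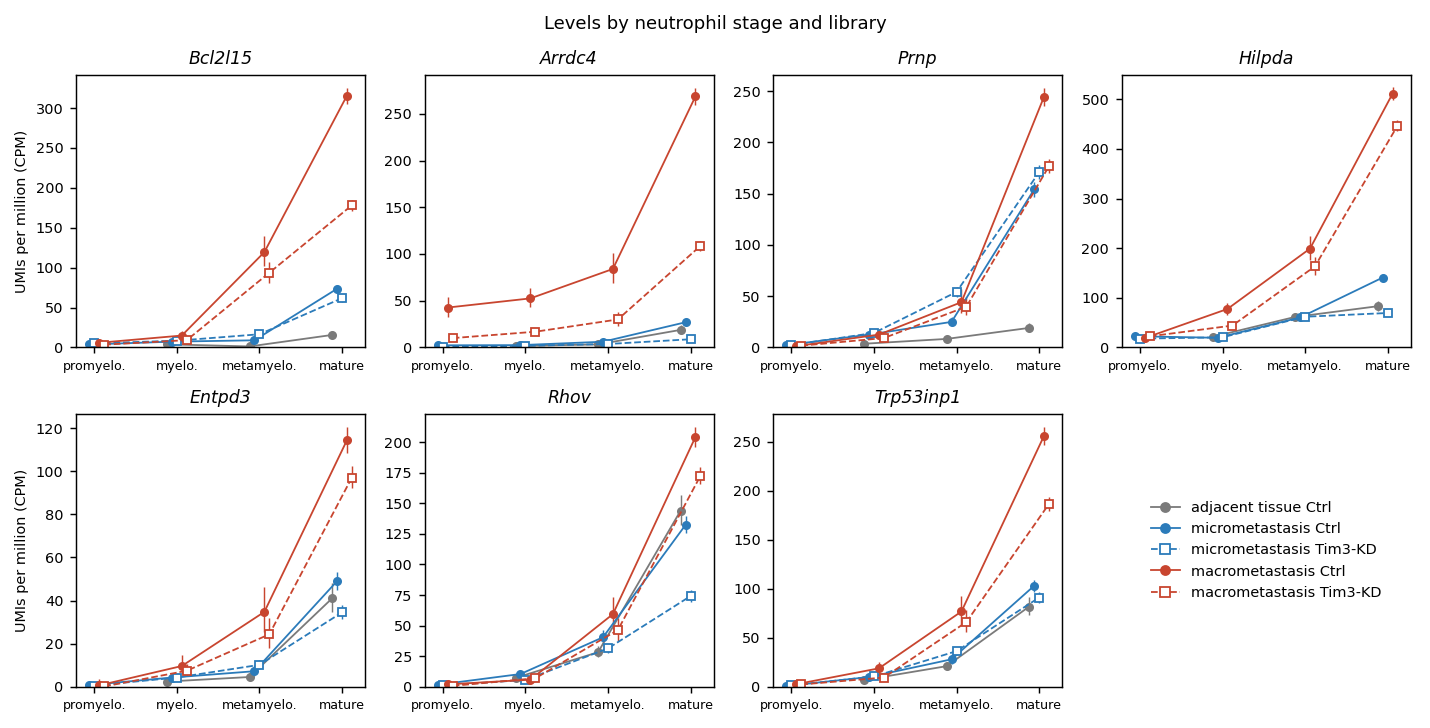
Level of each gene (CPM, linear axis from 0) in the 4 neutrophil stages, 1 line per library, with 95% Poisson intervals that cover counting error only. Both lines of macrometastasis end highest in every panel, by the narrowest margin for Prnp, where Tim3-KD ends at 177 CPM in macrometastasis and at 171 CPM in micrometastasis.

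Mature neutrophil-like over metamyelocyte-like cells, the ratio of CPM was 2.64 (95% interval 2.26 to 3.10) for Bcl2l15 in macrometastasis Ctrl and 8.20 (5.99 to 11.5) in micrometastasis Ctrl. For Prnp it was 5.53 (4.30 to 7.25) and 6.18 (5.11 to 7.54), and for Hilpda 2.57 (2.27 to 2.91) and 2.33 (2.05 to 2.66). A ratio of at least 2 is called here, for genes with at least 50 UMIs over both groups. The calls between stages are likewise a description of picked genes. Between 6 and 7 of the 7 genes were called higher in mature cells in each of the 5 libraries, beside a background of 47.9% of all genes in adjacent tissue Ctrl, 48.4% and 37.2% in micrometastasis Ctrl and Tim3-KD, and 50.2% and 49% in the Ctrl and Tim3-KD libraries of macrometastasis. The exceptions were Hilpda in adjacent tissue Ctrl (1.35) and micrometastasis Tim3-KD (1.12), and Bcl2l15 in macrometastasis Tim3-KD (1.90). All genes were shifted as well, with a trimmed mean log2 ratio of 0.81 to 1.00 in the 5 libraries. Relative to it, an alternative chosen after seeing the data, 5 of the 7 genes stayed at least 2-fold higher in adjacent tissue Ctrl, 4 in micrometastasis Ctrl (Bcl2l15, Arrdc4, Prnp and Entpd3), 1 in micrometastasis Tim3-KD (Bcl2l15), 1 in macrometastasis Ctrl (Prnp) and 2 in macrometastasis Tim3-KD (Prnp and Entpd3), and the 3 exceptions fell below the shift. Mature cells held fewer UMIs, with a median of 5006 to 5797 per cell against 15014.5 to 24858 in metamyelocyte-like cells, so a higher CPM is a larger share of the transcripts and not necessarily more molecules per cell. Hilpda in adjacent tissue Ctrl shows the difference, with 318 UMIs in 576 mature cells and 340 UMIs in 201 metamyelocyte-like cells.

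The genes of cell death and stress came out as follows in mature neutrophil-like cells. Bcl2l15 was 15.7 CPM (95% interval 12.0 to 20.2) in adjacent tissue Ctrl, 73.5 (68.5 to 78.8) and 61.7 (57.5 to 66.1) in micrometastasis Ctrl and Tim3-KD, and 315 (305 to 326) and 178 (171 to 185) in the Ctrl and Tim3-KD libraries of macrometastasis. Trp53inp1 was 81.8 CPM in adjacent tissue Ctrl, 103 and 90.9 in micrometastasis, and 255.8 and 186 in macrometastasis, in the same order. Both genes were therefore highest in macrometastasis Ctrl, and Bcl2l15 covered a wider range between libraries than Trp53inp1.

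Of the metabolic genes, Hilpda was 83.1 CPM in adjacent tissue Ctrl, 141 (134 to 148) and 69.4 (65.0 to 74.1) in micrometastasis Ctrl and Tim3-KD, and 511 (498 to 524) and 447 (436 to 458) in the Ctrl and Tim3-KD libraries of macrometastasis. Arrdc4 was 18.8 CPM in adjacent tissue Ctrl, 27.0 (23.9 to 30.3) and 8.77 (7.25 to 10.5) in micrometastasis, and 269 (259 to 278) and 109 (103 to 114) in macrometastasis. As a ratio of the highest to the lowest level, Arrdc4 had the widest range of the 7 genes over these 5 libraries, though Hilpda and Bcl2l15 spanned more CPM, with Arrdc4 at its lowest in micrometastasis Tim3-KD and at its highest in macrometastasis Ctrl.

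Of the surface proteins, Entpd3 had the same order of the libraries as Hilpda and Arrdc4, while Prnp and the GTPase gene Rhov had other orders. Entpd3 was 41.0 CPM in adjacent tissue Ctrl, 49.0 and 34.5 in micrometastasis Ctrl and Tim3-KD, and 114 and 97.1 in the Ctrl and Tim3-KD libraries of macrometastasis. Prnp was 19.1 CPM (14.9 to 24.0) in adjacent tissue Ctrl, 154 (147 to 162) and 171 (164 to 178) in micrometastasis, and 244 (236 to 253) and 177 (170 to 184) in macrometastasis. For Prnp the library that stood low was adjacent tissue, and micrometastasis Tim3-KD and macrometastasis Tim3-KD had overlapping intervals. Rhov was 144 CPM (132 to 156) in adjacent tissue Ctrl, 132 (126 to 139) and 74.1 (69.5 to 78.9) in micrometastasis, and 204 (196 to 212) and 172 (166 to 179) in macrometastasis. Adjacent tissue and micrometastasis Ctrl did not differ beyond counting error for Rhov, and micrometastasis Tim3-KD was the low library. In the 19 mature neutrophil-like cells of adjacent tissue Tim3-KD, Rhov had 14 UMIs and Arrdc4 had 4, and Bcl2l15, Entpd3 and Prnp had 0 UMIs, which at a floor of 3 UMIs, used here in place of the interval, allows a level of up to 29.0 CPM.

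Macrometastasis over micrometastasis is the contrast closest to the one the genes were picked on, so its values are a description. The 3 sites were scaled separately by the authors, and the levels set side by side are CPM from recovered UMIs. In Ctrl the ratio was 9.96 (8.83 to 11.3) for Arrdc4, 4.29 (3.97 to 4.64) for Bcl2l15, 3.63 (3.43 to 3.84) for Hilpda, 2.49 (2.32 to 2.66) for Trp53inp1 and 2.33 (2.11 to 2.59) for Entpd3, and 1.59 and 1.54 for Prnp and Rhov. With Tim3-KD it was 12.4 (10.3 to 15.1) for Arrdc4, 6.43 (6.0 to 6.90) for Hilpda, 2.89 (2.67 to 3.13) for Bcl2l15, 2.82 for Entpd3, 2.33 for Rhov, 2.05 for Trp53inp1 and 1.03 (0.977 to 1.096) for Prnp. Of all genes, 26.2% were called higher in Ctrl and 24.1% with Tim3-KD, and 5 and 6 of the 7 genes were among them. Called lower were 6.94 and 2.66% of all genes and 0 of the 7. The median of all genes was itself 0.53 (Ctrl) and 0.58 (Tim3-KD) higher on the log2 scale, beside 1.31 and 1.49 for the 7 genes. Relative to the trimmed mean over all genes, 3 (Ctrl) and 2 (Tim3-KD) of the 7 stayed at least 2-fold higher, and Prnp with Tim3-KD turned to a log2 ratio of −0.54. Arrdc4 and Hilpda kept log2 ratios of 2.78 and 1.32 in Ctrl and 3.04 and 2.10 with Tim3-KD.

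Micrometastasis over adjacent tissue, both of day 3 and in Ctrl, separated the genes differently. Prnp was 8.08-fold (6.39 to 10.4) and Bcl2l15 4.69-fold (3.61 to 6.21) higher in micrometastasis, and these were the 2 of the 7 genes called, beside 4.53% of all genes called higher, while 0 of the 7 were called lower beside 5.51%. Hilpda had a ratio of 1.69, Arrdc4 1.43, Trp53inp1 1.26, Entpd3 1.19 and Rhov 0.919 (0.832 to 1.02). The order of the genes was thus not that of macrometastasis over micrometastasis, where Arrdc4 led in both tumour lines and Prnp was among the lowest. Both contrasts share the micrometastasis Ctrl library. Cluster 0 held 75.5% of the class in adjacent tissue Ctrl and 54.8% in micrometastasis Ctrl. Within clusters 0 and 2, Bcl2l15 and Prnp were again the genes called higher, beside 5.28 and 7.93% of all genes. Entpd3, in adjacent tissue and micrometastasis, was 60.8 and 79.2 CPM in cluster 0 and 13.2 and 26.0 CPM in cluster 2.

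Markers of other cells in the mature neutrophil-like class moved between the libraries as well. The summed level of 3 hepatocyte markers (of 8 listed) was 75.5 CPM in adjacent tissue Ctrl, 19.6 and 30.2 in micrometastasis and 120 and 91.0 in macrometastasis, Alb leading in each library. Summed over 10 of 10 Kupffer cell markers it was 174 CPM with Marco and Folr2 at 0, then 167 and 119, then 220 and 240 CPM. For 12 of 12 T cell markers it was 56.7, 39.0 and 58.4, and 88.9 and 66.9 CPM, with Cd8a and Cd8b1 at 0 in adjacent tissue Ctrl and micrometastasis Ctrl. B cell markers (9 of 9) summed to 3.93 to 23.8 CPM. Markers of metamyelocytes (4 of 8) were 1671 CPM in adjacent tissue Ctrl, 2836 and 3678 in micrometastasis and 1681 and 1803 in macrometastasis. These sums differ between sites beside the 7 genes, and their part in the differences was not tested.

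Within the mature class the level of most of the 7 genes depended on the cluster. Among the clusters of macrometastasis, cluster 1 held the highest level of each gene except Rhov in Ctrl, for example 349 CPM of Bcl2l15 in Ctrl and 345 with Tim3-KD and 558 and 735 CPM of Hilpda. Cluster 2 was low for Entpd3, with 26.0 and 25.1 CPM in micrometastasis Ctrl and Tim3-KD against 79.2 and 63.5 CPM in cluster 0. Prnp in micrometastasis was likewise 123 and 139 CPM in cluster 2 and 195 and 269 CPM in cluster 0. Rhov was 132 CPM in cluster 2 and 133 CPM in cluster 0 of micrometastasis Ctrl, and 65.6 and 99.7 CPM with Tim3-KD. The clusters differed in depth too, with a median of 4858 UMIs per cell in cluster 0, 5034 in cluster 1 and 7544 in cluster 2, and the part of depth was not tested.

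**Figure D2:**
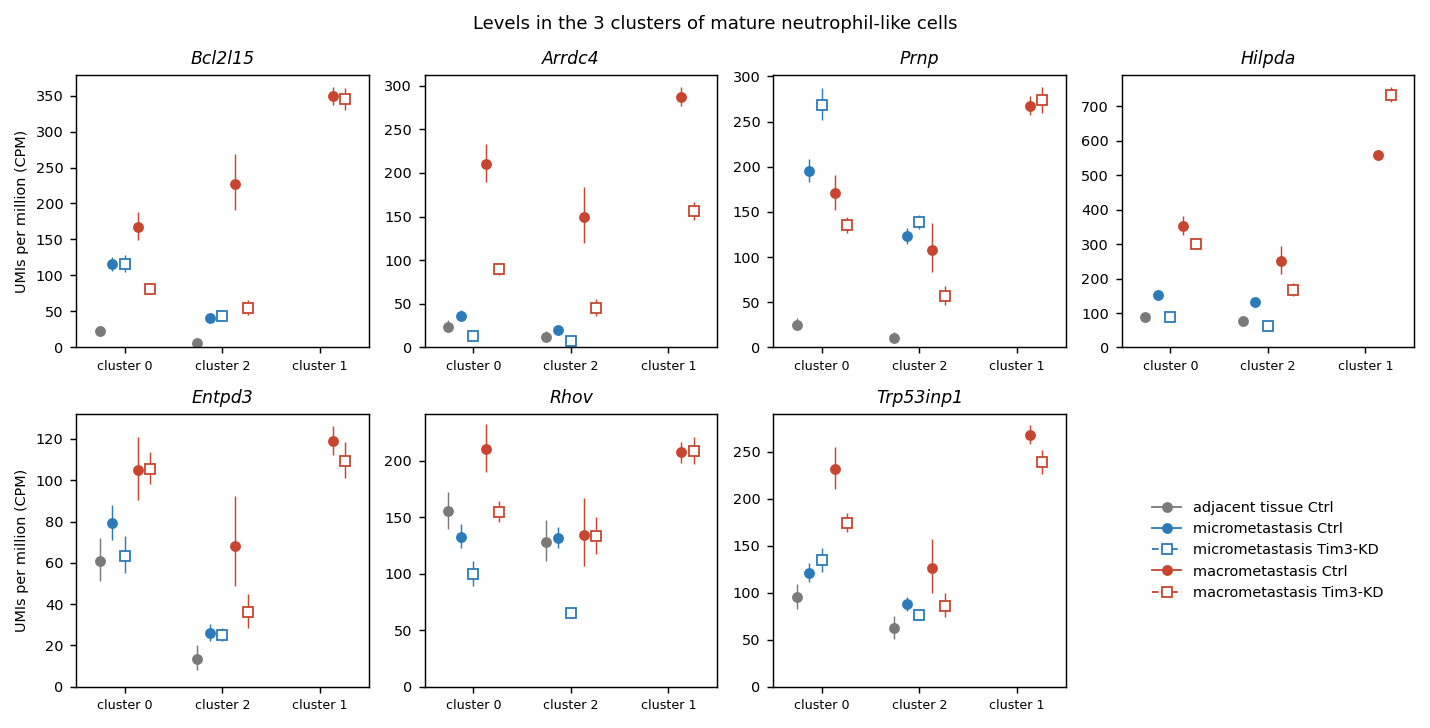
Level of each gene (CPM, linear axis from 0) in the 3 clusters of mature neutrophil-like cells, 1 point per library with its 95% Poisson interval. Cluster 1 has points for macrometastasis alone, and in cluster 0 Prnp is highest in micrometastasis Tim3-KD (269 CPM) while Arrdc4 and Hilpda are highest in macrometastasis.

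Cluster 0 held cells of both lesion sites, so the sites can be set side by side within it. Arrdc4 there was 36.6 CPM in micrometastasis and 211 in macrometastasis in Ctrl, a ratio of 5.75 (4.78 to 6.94), and 13.6 and 89.5 CPM with Tim3-KD, a ratio of 6.57 (4.84 to 9.14). Hilpda in cluster 0 had ratios of 2.33 (2.09 to 2.60) in Ctrl and 3.38 (2.99 to 3.84) with Tim3-KD. These were the 2 genes called in cluster 0, beside 9.75% of all genes in Ctrl and 9.62% with Tim3-KD. Bcl2l15 was 1.45-fold (1.26 to 1.68) higher in Ctrl but had a ratio of 0.697 (0.610 to 0.797) with Tim3-KD. Prnp in cluster 0 was lower in macrometastasis, with ratios of 0.874 (0.765 to 0.996) in Ctrl and 0.503 (0.458 to 0.552) with Tim3-KD. Trp53inp1, Rhov and Entpd3 had ratios of 1.91, 1.59 and 1.33 in Ctrl and 1.296, 1.55 and 1.66 with Tim3-KD, with intervals above 1. In a cluster common to both sites, 5 of the 7 genes were thus higher in macrometastasis in both tumour lines. Prnp was lower, and Bcl2l15 had opposite directions in the tumour lines. All genes in cluster 0 were shifted too, with a median log2 ratio of 0.27 in Ctrl and 0.19 with Tim3-KD. For the 7 genes the median was 0.66 and 0.64. In cluster 2 the genes called higher were Bcl2l15, Arrdc4 and Entpd3 in Ctrl, beside 26.4% of all genes, and Arrdc4, Hilpda and Rhov with Tim3-KD, beside 8.06%, and Prnp was called lower with Tim3-KD, beside 4.92%. Bcl2l15 there had ratios of 5.48 (4.42 to 6.76) and 1.28 (1.03 to 1.58). Arrdc4 had ratios of 7.64 (5.75 to 10.1) and 6.42 (4.66 to 8.89), and Prnp of 0.877 (0.670 to 1.13) and 0.406 (0.333 to 0.491). This cluster held only 37 cells of macrometastasis Ctrl.

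Between the tumour lines, Arrdc4 was lower with Tim3-KD at both lesion sites. In mature neutrophil-like cells its ratio of Tim3-KD over Ctrl was 0.325 (0.260 to 0.405) on day 3, in micrometastasis, while macrometastasis had 0.404 (0.380 to 0.430). In micrometastasis Hilpda followed with 0.493 (0.454 to 0.536) and Rhov with 0.560 (0.516 to 0.608). At least 2-fold lower were 2 of the 7 genes, Arrdc4 and Hilpda, beside 3.9% of all genes, and 0 were 2-fold higher beside 1.25%. The call of Hilpda ended at a finer clustering and relative to the trimmed mean over genes, with log2 ratios of −0.95 and −0.91 instead of −1.02. The other ratios of micrometastasis were 0.704 (0.619 to 0.799) for Entpd3, 0.839 (0.760 to 0.926) for Bcl2l15, 0.883 (0.813 to 0.959) for Trp53inp1 and 1.11 (1.04 to 1.18) for Prnp. Trp53inp1 turned to a log2 ratio of 0.12 when mature cells were called cell by cell. Cluster 0 held 54.8% of the class in Ctrl and 37.0% with Tim3-KD, and within clusters 0 and 2 Bcl2l15 had ratios of 1.01 (0.881 to 1.15) and 1.04 (0.888 to 1.22) and Entpd3 of 0.802 (0.672 to 0.954) and 0.967 (0.790 to 1.19). Arrdc4 had 0.372 (0.260 to 0.521) and 0.360 (0.264 to 0.488) there, and Hilpda 0.586 (0.509 to 0.674) and 0.481 (0.433 to 0.534). The 7 genes had a median log2 ratio of −0.51, beside −0.11 over all genes.

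In macrometastasis all 7 genes had a ratio below 1 in the mature class. Their median log2 ratio was −0.46, beside −0.13 over all genes. After Arrdc4 came Bcl2l15 with 0.565 (0.537 to 0.594), Prnp with 0.723 (0.685 to 0.763), Trp53inp1 with 0.729 (0.691 to 0.768), Rhov with 0.844, Entpd3 with 0.849 and Hilpda with 0.874 (0.843 to 0.905). Arrdc4 was the 1 gene of the 7 called lower, beside 2.18% of all genes, and 0 of 7 were called higher beside 3.35%. The clusters that made up the class differed between these libraries, with 83.1% of the cells of Ctrl and 47.3% of those of Tim3-KD in cluster 1. Within cluster 1 the ratio was 0.987 (0.932 to 1.04) for Bcl2l15, 1.02 (0.960 to 1.09) for Prnp, 1.01 (0.935 to 1.08) for Rhov and 0.919 (0.831 to 1.02) for Entpd3, so that none of these 4 differed beyond counting error there. Arrdc4 remained lower with 0.544 (0.503 to 0.588), Trp53inp1 was 0.890 (0.832 to 0.952) and Hilpda was 1.32 (1.26 to 1.37). In cluster 0 Bcl2l15 had a ratio of 0.483 (0.419 to 0.558), Arrdc4 0.425 (0.373 to 0.485), Hilpda 0.850 (0.777 to 0.931) and Entpd3 1.01 (0.856 to 1.19). Arrdc4 was lower with Tim3-KD in clusters 0 and 2 of micrometastasis and in all 3 clusters of macrometastasis, at ratios of 0.303 to 0.544, while cluster 1 of micrometastasis, with 8 and 11 cells, gave no value. By contrast, Bcl2l15 was lower in clusters 0 and 2 of macrometastasis and did not differ beyond counting error in cluster 1. Called lower in cluster 0 were Arrdc4 in micrometastasis, beside 3.76% of all genes, and Arrdc4 and Bcl2l15 in macrometastasis, beside 2.72%. In cluster 1, 0 of the 7 were called in either direction, beside 0.715% of all genes higher and 2.44% lower. In cluster 2, Arrdc4, Hilpda and Rhov were called lower in micrometastasis, beside 2.46%, and Arrdc4 and Bcl2l15 in macrometastasis, beside 12%.

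**Figure D3:**
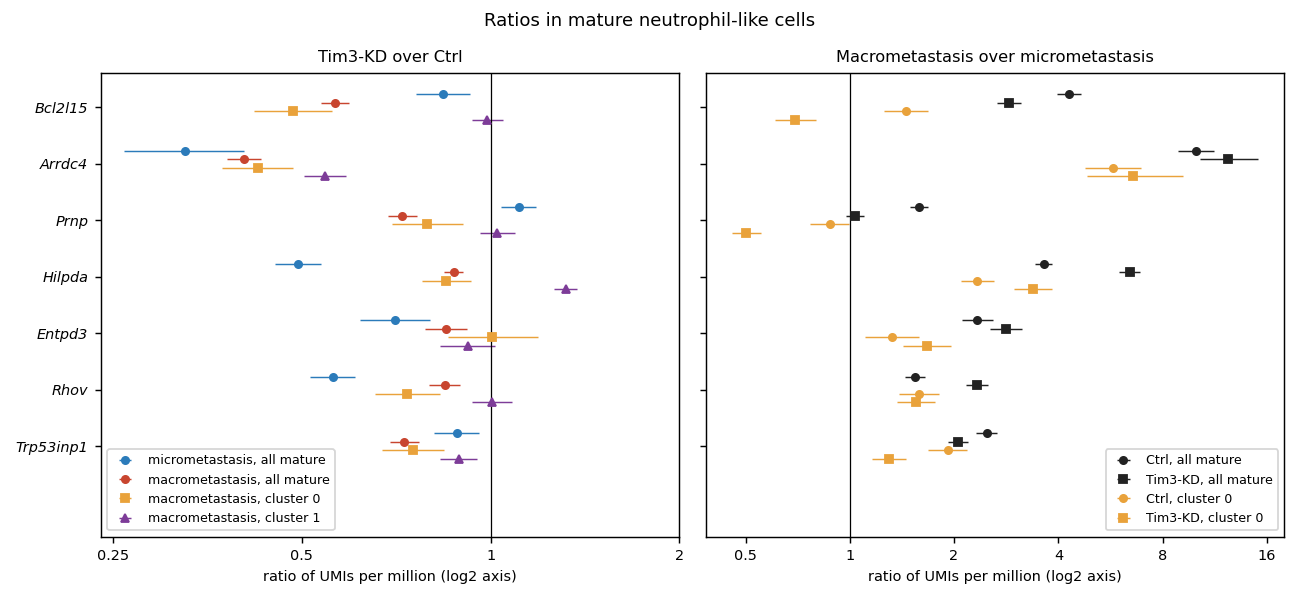
Ratio of CPM in mature neutrophil-like cells on a log2 axis, Tim3-KD over Ctrl on the left and macrometastasis over micrometastasis on the right, with exact 95% intervals of 2 Poisson counts and a line at 1. Arrdc4 lies left of the line for every set of cells in the left panel, and Hilpda in cluster 1 lies right of it at 1.32.

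The share of cells with a UMI was compared after every cell had been thinned to 1500 UMIs, which left out 0 mature cells. Arrdc4 was found in 4.04% of the mature neutrophil-like cells of micrometastasis Ctrl, 1.02% of micrometastasis Tim3-KD, 31.3% (29.1 to 33.7%) of macrometastasis Ctrl and 16.6% (15 to 18.3%) of macrometastasis Tim3-KD. Hilpda was found in 15.2, 8.85, 42.0 and 35.0% and Bcl2l15 in 11.7, 11.4, 32.2 and 20.7%, in the same order. Prnp was found in 21.4, 25.5, 30.0 and 23.4%, Trp53inp1 in 15.1, 14.1, 30.0 and 25.2%, Rhov in 17.5, 11.3, 25.5 and 22.99%, and Entpd3 in 7.28, 5.30, 15.3 and 14.6%. Macrometastasis Ctrl had the highest share for each of the 7 genes, as it had the highest level. Without thinning, in macrometastasis Ctrl, the shares were 64.7% for Bcl2l15, 70.7% for Arrdc4, 68.4% for Prnp, 67.2% for Hilpda, 44.4% for Entpd3, 61.3% for Rhov and 69.2% for Trp53inp1. B-like cells, at a median of 3484 to 9590 UMIs per cell in the 6 libraries beside 5006 to 5797 in mature neutrophil-like cells, served as the background for the genes they hold little of. They are no such background for Hilpda and Trp53inp1, with shares of 4.63 to 8.57% and 4.67 to 8.69% after thinning. In the B-like cells of macrometastasis Ctrl the thinned share was 0.835% for Bcl2l15, 0.167% for Arrdc4 and Prnp, 6.84% for Hilpda, 4.67% for Trp53inp1, and 0 of 599 cells for Entpd3 and Rhov. In the 70 B-like cells of micrometastasis Tim3-KD, Bcl2l15 had 2.86%.

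How many of the 7 genes a cell held is a description, since the genes were picked for their levels in day 12 neutrophils, and no other genes were set beside them. After thinning, 3 or more of the 7 genes had a UMI in 1.56% of the mature neutrophil-like cells of adjacent tissue Ctrl, in 6.47 and 3.73% of micrometastasis Ctrl and Tim3-KD, and in 35.5 and 23.7% of macrometastasis Ctrl and Tim3-KD. None of the 7 was found in 10.97 and 24.4% of the mature cells of macrometastasis Ctrl and Tim3-KD. In cluster 1 the share with 3 or more was 38.8% in both libraries, and in macrometastasis it was 20.4 and 11.1% in cluster 0 and 10.8 and 5.85% in cluster 2. The tumour lines thus differed in this share in the whole class and in cluster 0 but had like values in cluster 1. Among cells with a UMI of 1 gene, the share with a UMI of another was higher than among cells without it in 38 of 42 ordered pairs of genes in macrometastasis Ctrl, where each pair counts in both orders and the difference ran from −2.64 to 8.33 percentage points, and in 42 of 42 with Tim3-KD, by 0.483 to 18.9 points. The widest gap with Tim3-KD was that of Hilpda, found in 50% of 406 cells with Bcl2l15 and in 31.1% of 1556 cells without. The clusters are pooled in these shares, and their part in them was not tested.

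**Figure D4:**
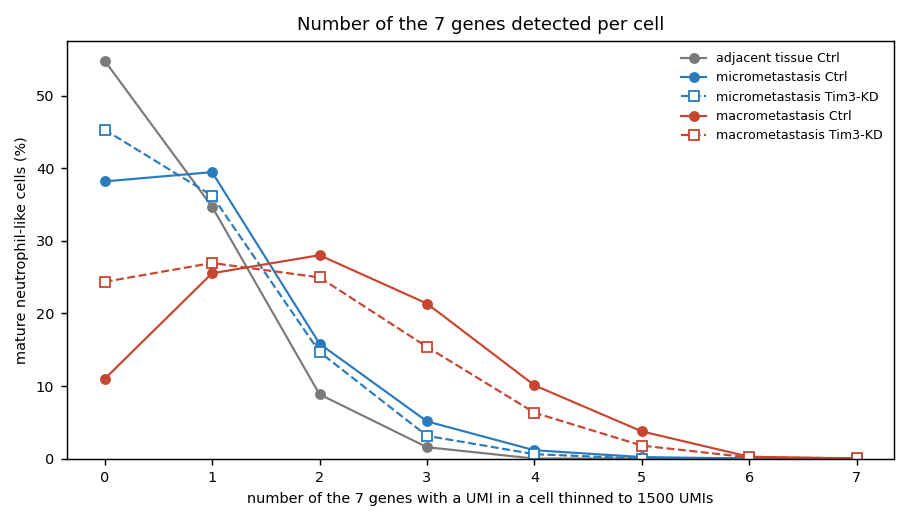
Share of mature neutrophil-like cells (%, linear axis from 0) by the number of the 7 genes with a UMI after thinning to 1500 UMIs per cell, 1 line per library. The highest points of day 3 are at 0 genes (54.9% in adjacent tissue Ctrl) or 1 gene (39.5% in micrometastasis Ctrl), and macrometastasis Ctrl is highest at 2 genes (28.0%).

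Outside the neutrophils the genes fell into those nearly restricted to neutrophils and those found broadly. Of the UMIs of a gene in macrometastasis Ctrl, mature neutrophil-like cells held 91.0% for Entpd3, 89.6% for Prnp, 89.5% for Bcl2l15, 87.6% for Rhov, 75.5% for Trp53inp1, 68.9% for Arrdc4 and 57.4% for Hilpda, while they were 32.7% of the cells and held 27.3% of all UMIs. Since the genes were picked as genes of day 12 neutrophils, calls against other cells are a description. In macrometastasis each of the 7 genes was called higher in mature neutrophil-like cells than in all other cells. Of all genes, 18.2% were called there in Ctrl and 20.7% with Tim3-KD. In adjacent tissue Ctrl 6 of 7 were called, all but Hilpda, beside 20.4%, and in micrometastasis 5 in Ctrl, all but Arrdc4 and Hilpda, beside 17.4%, and 6 with Tim3-KD, all but Hilpda, beside 21.3%. In micrometastasis the same shares in Ctrl were 85% for Entpd3, 79.9% for Bcl2l15, 73.4% for Prnp, 68.2% for Rhov, 63.1% for Trp53inp1, 32.2% for Arrdc4 and 27.0% for Hilpda, with 29.1% of the cells and 19.2% of all UMIs. For Arrdc4 and Hilpda these shares were near the share of the cells in micrometastasis and above it in macrometastasis.

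**Figure D5:**
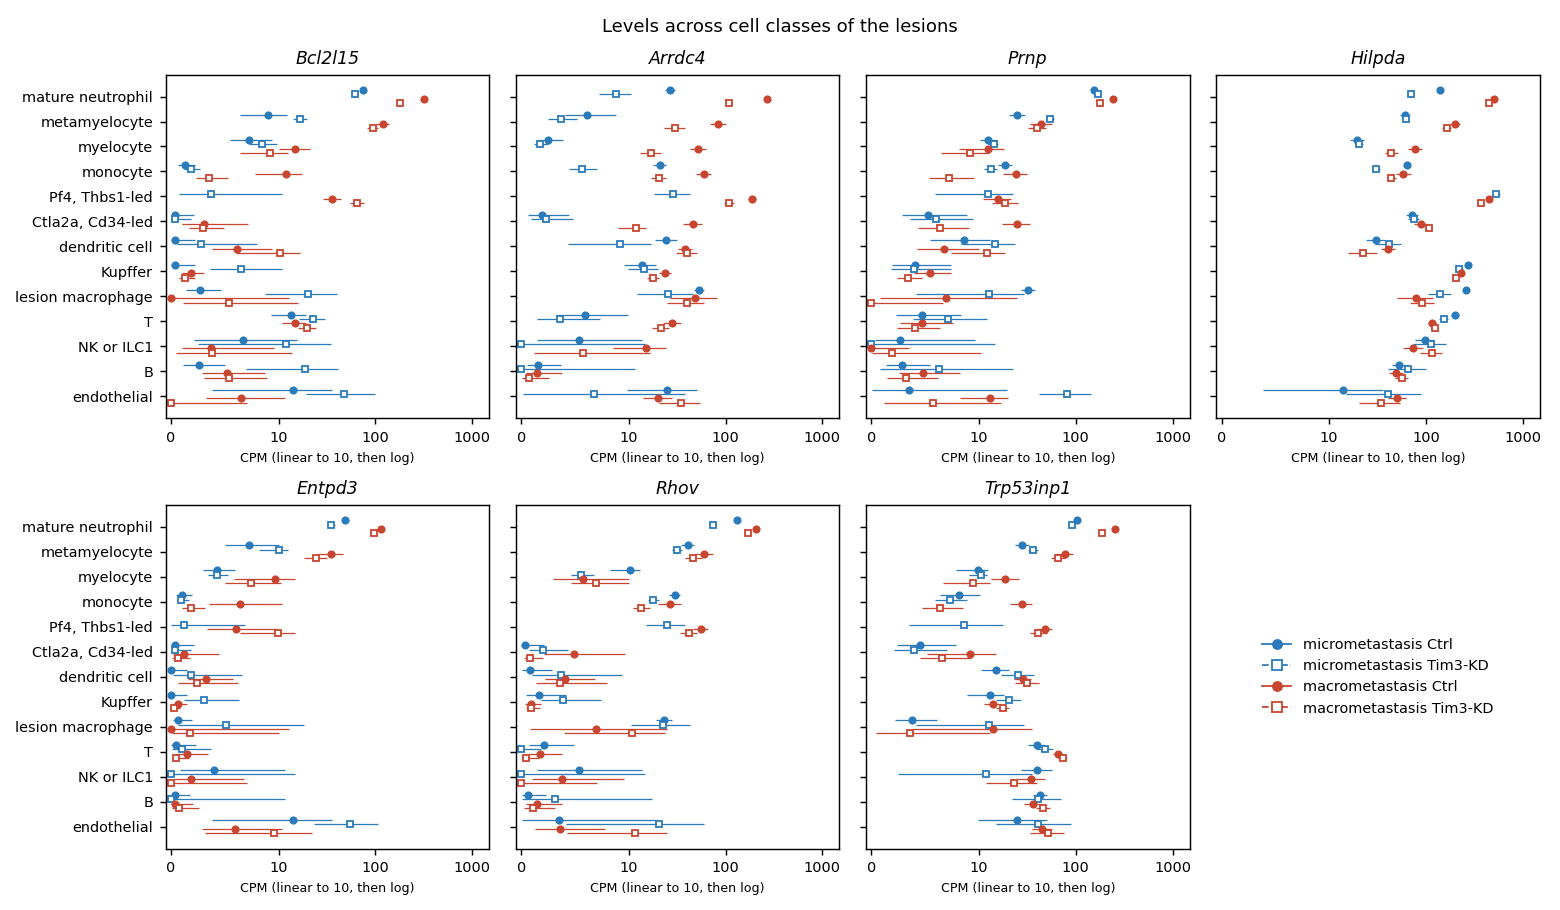
Level of each gene (CPM, axis linear up to 10 and logarithmic above) in the cell classes of the lesions with at least 30 cells, other than promyelocyte-like cells and the cluster led by Mcpt8 and Prss34, 1 point per library with its 95% Poisson interval. The top row of each panel is the mature neutrophil-like class, and Hilpda reaches 536 CPM in the cluster led by Pf4 and Thbs1.

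Hilpda had high levels in several other classes. Kupffer-like cells, the resident macrophages of the liver, had 129 to 273 CPM over the 6 libraries, T-like cells 71.2 to 201 CPM, and an unnamed cluster led by Pf4 and Thbs1 373 to 536 CPM in the 3 libraries with enough cells. An unnamed cluster led by Mcpt8 and Prss34 had 206 to 456 CPM. Arrdc4 in the cluster led by Pf4 and Thbs1 had 28.4 CPM in micrometastasis Tim3-KD and 186 and 108.5 CPM in macrometastasis Ctrl and Tim3-KD, the last close to the 108.7 CPM of mature neutrophil-like cells of that library. Trp53inp1 in lymphocytes had 39.4 to 76.7 CPM in T-like and 30.5 to 47.6 CPM in B-like cells. Rhov outside the neutrophil stages was found in monocyte-like cells, at 13.5 to 29.8 CPM, in lesion macrophage-like cells of micrometastasis, at 23.1 and 22.8 CPM, and in the cluster led by Pf4 and Thbs1, at 24.7 to 55.2 CPM. Entpd3 and Prnp had levels of 54.3 and 81.4 CPM in the 38 endothelial-like cells of micrometastasis Tim3-KD, on 8 and 12 UMIs. This class is at the edge of a CD45+ sort, and other endothelial-like cells of the lesions had 5.95 to 14.03 CPM of Entpd3. Prnp was 32.0 CPM (27.0 to 37.7) in lesion macrophage-like cells of micrometastasis Ctrl and 12.7 CPM with Tim3-KD. In monocyte-like cells of the lesions Prnp was 7.25 to 23.9 CPM. Bcl2l15 stayed under 20 CPM in most classes and reached 64.4 CPM in the cluster led by Pf4 and Thbs1 of macrometastasis Tim3-KD.

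Differences of Arrdc4 were found in other classes as well, earlier neutrophil stages included. Macrometastasis over micrometastasis, its interval lay above 1 in 8 of 12 other classes in Ctrl and in 9 of 14 with Tim3-KD, and below 1 in 0 classes. Tim3-KD over Ctrl, it lay below 1 in 7 of 13 other classes in macrometastasis and in 4 of 13 in micrometastasis, and above 1 in 0 classes of the lesions. Hilpda lay below 1 in 6 of 13 classes at each site, and above 1 in 1 class of macrometastasis. The counts of classes in this paragraph have no value over all genes beside them, and the part of a general shift was not tested. In Kupffer-like cells of adjacent tissue Arrdc4 had 2 UMIs in 31 cells of Ctrl and 50 UMIs in 106 cells of Tim3-KD, a ratio of 6.10 (1.60 to 51.8). In monocyte-like cells Arrdc4 was 20.8 and 5.605 CPM in micrometastasis Ctrl and Tim3-KD, a ratio of 0.270 (0.203 to 0.354), and 59.7 and 20.3 CPM in macrometastasis, a ratio of 0.341 (0.267 to 0.435). In the monocyte-like cells of macrometastasis the ratio of Tim3-KD over Ctrl was below 1 for all 7 genes, from 0.232 (Trp53inp1) to 0.756 (Hilpda), with 0.288 for Entpd3 on 13 and 14 UMIs. Of the 6 genes with enough UMIs 4 were called lower, beside 21.4% of all genes, and 0 higher, beside 8.96%, and the median log2 ratio of all genes was −0.34. These cells had a median of 9579 UMIs in Ctrl and 13549.5 with Tim3-KD, and the part of depth was not tested. For Bcl2l15 the interval of Tim3-KD over Ctrl lay above 1 in 5 and below 1 in 0 of 13 other classes of micrometastasis, and above 1 in 1 and below 1 in 2 of 13 of macrometastasis.

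Other genes of the same processes were read from fixed lists. The genes named are among the 3 of a list with the highest level in mature cells of macrometastasis Ctrl. Not all 3 are named for every list. Of the hypoxia and glycolysis list, to which Hilpda is close, 10 genes had enough UMIs, and macrometastasis over micrometastasis 2 were called higher and 0 lower in each tumour line, beside the 26.2 and 24.1% of all genes given above. Ero1l, an oxidoreductase of the endoplasmic reticulum, had ratios of 2.25 in Ctrl and 2.64 with Tim3-KD. The glucose transporter Slc2a3 had 1.17 and 1.07. Bnip3 was 41.0 CPM in micrometastasis and 38.2 CPM in macrometastasis of Ctrl, and 30.4 and 44.6 CPM with Tim3-KD. Of the p53 response list, 2 of 7 were called higher in Ctrl and 6 of 7 with Tim3-KD, and Gadd45a, a stress-induced growth arrest gene, had ratios of 1.36 and 3.36, Gadd45b 1.19 and 2.33 and the cell cycle inhibitor Cdkn1a 1.43 and 2.85. Of the BCL2 family, the near-identical Bcl2a1a, Bcl2a1b and Bcl2a1d had enough UMIs, and 0 of 3 were called in Ctrl and 3 of 3 with Tim3-KD. Reads of these 3 genes may be split between them, so their values are uncertain. Of the autophagy and lysosome list 4 of 5 were called higher in Ctrl and 1 of 5 with Tim3-KD. The protease gene Ctsl had ratios of 2.82 and 1.55. Ctsb, in micrometastasis and macrometastasis, was 243 and 270 CPM in Ctrl and 201 and 314 CPM with Tim3-KD. Cd63 was 128 and 290 CPM in Ctrl and 120 and 209 CPM with Tim3-KD. Of the lipid list, 1 of 5 was called higher and 2 lower in Ctrl, and 2 higher and 0 lower with Tim3-KD, with G0s2, another inhibitor of adipose triglyceride lipase, at 0.347 and 3.19. Of the nucleotide list 1 of 4 was called higher in Ctrl and 0 of 5 with Tim3-KD. Mlxip, a glucose-sensing transcription factor subunit, was the 1 gene of the arrestin and glucose-sensing list with enough UMIs and had ratios of 1.76 and 1.70.

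Tim3-KD over Ctrl in macrometastasis, 3.35% of all genes were called higher and 2.18% lower, and the lists held few calls. The lists of hypoxia (0 of 11), p53 response (0 of 7), BCL2 family (0 of 3), nucleotide handling (0 of 5), autophagy (0 of 6) and glucose sensing (0 of 1) had none in either direction. The lipid list had 2 of 6 called higher, G0s2 with a ratio of 3.20 and the fatty acid binding protein gene Fabp5 with 3.12, while Hilpda had 0.874. In micrometastasis G0s2 went the other way, at 3424 CPM in Ctrl and 1192 CPM with Tim3-KD, a ratio of 0.348, beside 0.493 for Hilpda. G0s2 was among the 10 leading genes of cluster 0, which held 14.6 and 43.1% of the class in macrometastasis Ctrl and Tim3-KD. In micrometastasis this cluster held 54.8 and 37.0%, and the part of the clusters in the ratios of G0s2 was not tested.

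The genes with the most similar profiles were taken over 71 profiles of class by library, as Pearson's r of log2(CPM + 5) among 1641 genes. The profiles share libraries, depth and the neutrophil classes, so r is a description. Entpd3 was most like Nlrp12, Mirt2 and Gm16556 (r of 0.87 each), and Rhov was most like Slc7a11 (0.92), Mmp8 and Slc16a3 (0.91 each). Prnp was most like Entpd3 (0.84), Il1r2 and Gm16556 (0.83 each), and Bcl2l15 most like Entpd3 (0.80), Dedd2 (0.78) and Mirt1 (0.77). Trp53inp1 was most like Phf1 (0.83), Lmbr1l and Khnyn (0.81 each). Hilpda was most like Galnt6 (0.80), Ccl3 and Srxn1 (0.65 each), and Arrdc4 had the lowest values, with Cbr3 at 0.66, Ctsl at 0.63 and Ddx28 at 0.61. Among the 7 genes r ran from 0.24 between Entpd3 and Hilpda to 0.84 between Prnp and Entpd3.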

How the data were processed

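CD45+ cells of 6 libraries were measured, 1 per group. Per the study's methods and the submitters' processing notes, reads were trimmed (Trim Galore 0.4.3) and aligned to GRCm38 (STAR 2.7.7a), and reads in gene bodies, introns included, gave the UMIs. Cells with 1000 UMIs or fewer or 500000 or more, few genes or a high mitochondrial share were dropped by the authors, as were doublets found with scrublet. The values the authors deposited, 1 matrix per site of variable genes, are scaled scores capped at 10, which behaved as log-normalised UMIs with 1 covariate regressed out. The comparisons had been planned for UMIs, so the scores were inverted to UMIs. Of the values recovered, 99.9968 to 99.9999% were whole within 0.05 UMI, and all values of the 7 genes were whole. Of the scores, 0.144 to 0.160% were at the cap and were given the smallest number of UMIs that reaches it. The inversion was tested on simulated data.

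Cells were clustered with purpose-written code on 1635 genes shared by the matrices, without the 7 genes (log-normalised values, 30 principal components, 15 nearest neighbours by Manhattan distance, Leiden 0.10.2 at resolution 1, seed 1), which gave 25 clusters. A cluster took the name of the list with most markers among its 10 leading genes where at least 3 markers of that list were at least 2-fold higher and no other list equalled it, and 3 stayed unnamed. Where no list had a marker among the 10, the number of markers at least 2-fold higher decided, which put 1 cluster of 68 cells with the monocyte-like cells. The naming limits were set after the clusters were seen. A doublet score in the way of scrublet was over 0.15 in 2.66 to 9.78% of cells, and these cells were kept. Levels are UMIs per 1000000 UMIs of all genes (CPM) with exact Poisson intervals, ratios have exact conditional binomial intervals and shares have exact Clopper-Pearson intervals. No replicates existed, so no count model was fitted. Calls were ratios of at least 2 with at least 50 UMIs in both groups together and 0.5 added to each sum. Named genes are the 7 genes and the 3 genes of highest r for each of the 7. Genes named from a list are among its 3 highest in mature cells of macrometastasis Ctrl. The 7 genes, the lists and the markers were chosen with earlier results of these data known. The result of 1 of the lists is not reported here. Classes with under 30 cells were left out. Analyses used Python 3.11.15, numpy 2.4.6, scipy 1.17.1 and pandas 2.3.3.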

Additional observations from a re-analysis of the deposited data

Results flagged for a closer look

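The differences below were named because the effect went one way in 1 setting and the other way in another. None of these differences was tested, since each group was 1 library.

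Prnp in the mature neutrophil-like class was higher with Tim3-KD in micrometastasis (ratio 1.11) and lower in macrometastasis (0.723), a difference of 0.62 on the log2 scale. The same held in cluster 0, with 1.38 and 0.792 and a difference of 0.80, and in cluster 2, with 1.13 and 0.523 and a difference of 1.11. Cluster 1 held 83.1 and 47.3% of the class in macrometastasis Ctrl and Tim3-KD. Prnp there was 267 CPM (257 to 278) and 274 CPM (260 to 288), so it did not differ beyond counting error. Bcl2l15 in cluster 0 was higher in macrometastasis than in micrometastasis in Ctrl (1.45) and lower with Tim3-KD (0.697), a log2 difference of 1.06. Hilpda in macrometastasis was higher with Tim3-KD in cluster 1 (1.32) and lower in cluster 0 (0.850) and cluster 2 (0.667). Cluster 1 minus cluster 0 was 0.63 and cluster 2 minus cluster 1 was −0.98 on the log2 scale.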

How the results depend on the processing

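With 1 pooled library per group, the spread between mice is unknown and the intervals understate the error. A fit over the sites with the site as a block was not run. Of the values of Tim3-KD over Ctrl under alternatives, 116 stayed, 27 moved and 1 turned its direction. Here and for site and day, the values are log2 ratios and counts of the 7 genes at least 2-fold changed. A ratio stayed if it lay within its counting interval, and a count if it changed by a factor of at most 1.5. Trp53inp1 in micrometastasis became 0.12 on the log2 scale when mature cells were called cell by cell from marker sums. Under that calling 7 of the ratios of Tim3-KD over Ctrl moved, 1 turned and 6 stayed. It kept from 29.5% (micrometastasis Tim3-KD) to 53.3% (adjacent tissue Ctrl) of the mature cells of a library. In micrometastasis the number of the 7 genes at least 2-fold lower with Tim3-KD was 1 (Arrdc4) at Leiden resolution 2 and 1 relative to the trimmed mean over genes, instead of 2, and in macrometastasis it was 2 in clusters 0 and 2 alone, instead of 1, an alternative chosen after seeing the data. Of the levels, 146 stayed and 64 moved, of the shares of cells 1 stayed and 69 moved with the thinning, and of the shares of all genes called 8 stayed and 12 moved. Relative to the trimmed mean, an alternative chosen after seeing the data, the genes at least 2-fold higher in mature than in metamyelocyte-like cells were 4 in micrometastasis Ctrl, instead of 7, 1 with Tim3-KD, instead of 6, 1 in macrometastasis Ctrl, instead of 7, and 2 with Tim3-KD, instead of 6. Of the site and day values, 163 stayed and 53 moved, and relative to the trimmed mean the genes at least 2-fold higher in macrometastasis were 3 in Ctrl, instead of 5, and 2 with Tim3-KD, instead of 6. At 1.5-fold, the shares of all genes called higher and lower were 5.41 and 12.5% for Tim3-KD over Ctrl in micrometastasis and 8.83 and 12.1% in macrometastasis, 47.2 and 12.0% for macrometastasis over micrometastasis in Ctrl and 50 and 5.64% with Tim3-KD, and 11.9 and 18.1% for micrometastasis over adjacent tissue. With at least 200 UMIs, 0.813% were called higher in micrometastasis and 1.42% lower in macrometastasis with Tim3-KD. Leaving out cells under 3000 UMIs moved 1 of the site and day values and none of Tim3-KD over Ctrl, and leaving out cells of a doublet score over 0.15 moved none.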
